A study of Homo sapiens with 6 samples.

Results

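The mitochondrial ribosomal protein genes are the nuclear genes whose symbols read MRPL or MRPS followed by a number, with a letter A, B or C allowed after an MRPS number. Of the 47470 genes listed in the count files 78 fit this rule, 51 of the large subunit (the MRPL genes with MRPS18A and MRPS30), 26 of the small subunit, and MRPS36, which is not a ribosomal protein. They lie on 21 chromosomes. The members were taken by symbol and not by their counts, but the rule was set with earlier results of these data known. The cells were HEK293T, a line from human embryonic kidney with the large T antigen of SV40, and the untreated ones are labelled wild type. The treated cells of the same line were kept for 1 day in 1 mM VPA (valproic acid), which inhibits histone deacetylases. Strand-specific mRNA libraries were made, 3 per condition, each a bulk sample in which fewer cells of a type and less RNA per cell cannot be told apart. No source says that the 3 libraries of a condition came from separate cultures, so the p-values measure the spread between these libraries, which may be technical.

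The mitochondrial ribosome translates the few membrane proteins of the respiratory chain that the mitochondrial genome encodes. Its ribosomal RNAs are transcribed inside the organelle, while its proteins are encoded in the nucleus, made in the cytosol and imported. Some of these proteins descend from bacterial ribosomal proteins, and others were added in the mitochondrial lineage and coat the particle or replace lost RNA. The comparison of VPA-treated with untreated cells asks how the transcripts of these proteins stood after 1 day of treatment. The 15 ribosomal RNA and protein-coding entries of the mitochondrial genome itself are listed at 0 counts in all 6 libraries, so that only the nuclear side of the ribosome could be read.

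The depth was even, with 18622267 to 18828495 counts on genes per library. Marker genes of this line were well counted, among them VIM, IGF2BP1, NEFM and LIN28B, and the summed counts of the 6 line markers ranged from 25799 to 26397 untreated and from 26740 to 27950 after VPA. PAX2 was the low one, at 28 to 149 counts. The 7 markers of other cell types summed to 409 to 478 counts in untreated and 1332 to 1507 in VPA-treated libraries. Most of these were of the fibroblast gene COL1A1, at 383 to 441 and 1260 to 1436 counts, and DCN went from 0 to 3 counts to 40 to 47. The leukocyte, liver and endothelial markers PTPRC, CD3E, ALB and PECAM1 had at most 5 counts in any library, and whether the higher COL1A1 and DCN have a part in the results was not tested.

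Most of the mitochondrial ribosomal protein genes were lower after VPA, each by a small amount. Of the 77 members that passed the filter on low counts, 58 fell (75.3%) and 0 rose in edgeR's quasi-likelihood test at an adjusted p under 0.05, against 30% of all 15298 genes tested called lower and 32.9% called higher. At an unadjusted p under 0.05 the members counted 58 lower and 0 higher. DESeq2 called 56 lower and 0 higher, beside 21.7% of all genes lower and 21.7% higher. The median log2 fold change of the 77 was -0.25, a change of -15.6%, against 0.0058 over all genes tested. These counts moved with the scaling between libraries. With plain library totals 35 members were lower and 4 higher, beside 15.5% of all genes lower and 43.9% higher. With a scaling on the cytosolic ribosomal protein genes 9 members were lower and 24 higher, beside 5.56% and 60.4% of all genes. A scaling shifts all genes nearly alike, and the all-gene median moved to 0.14 and 0.28.

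The changes were narrow in range. The log2 fold changes ran from -0.54 to 0.069, with quartiles of -0.31 and -0.12, and 73 of the 77 were below 0. A total of 16 members were lower by at least 20%. At the study's thresholds, which also ask that the log2 fold change reach 1 in size, 0 members were called by edgeR or DESeq2, and 0 pass that size at any p, against 12% of all genes called up and 0.503% called down. All 3 VPA-treated libraries lay below all 3 untreated ones for 59 of the 77 members, against 31% of all genes tested, and above them for 0, against 34.8%. MRPS33 and MRPL43 were called lower although their groups overlapped, while MRPL36, MRPL10 and MRPL50 were not called although theirs did not. The call of MRPS33 was lost without untreated replicate 2, untreated replicate 3 or VPA-treated replicate 1, and that of MRPL43 without untreated replicate 2, VPA-treated replicate 2 or VPA-treated replicate 3.

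**Figure D1:**
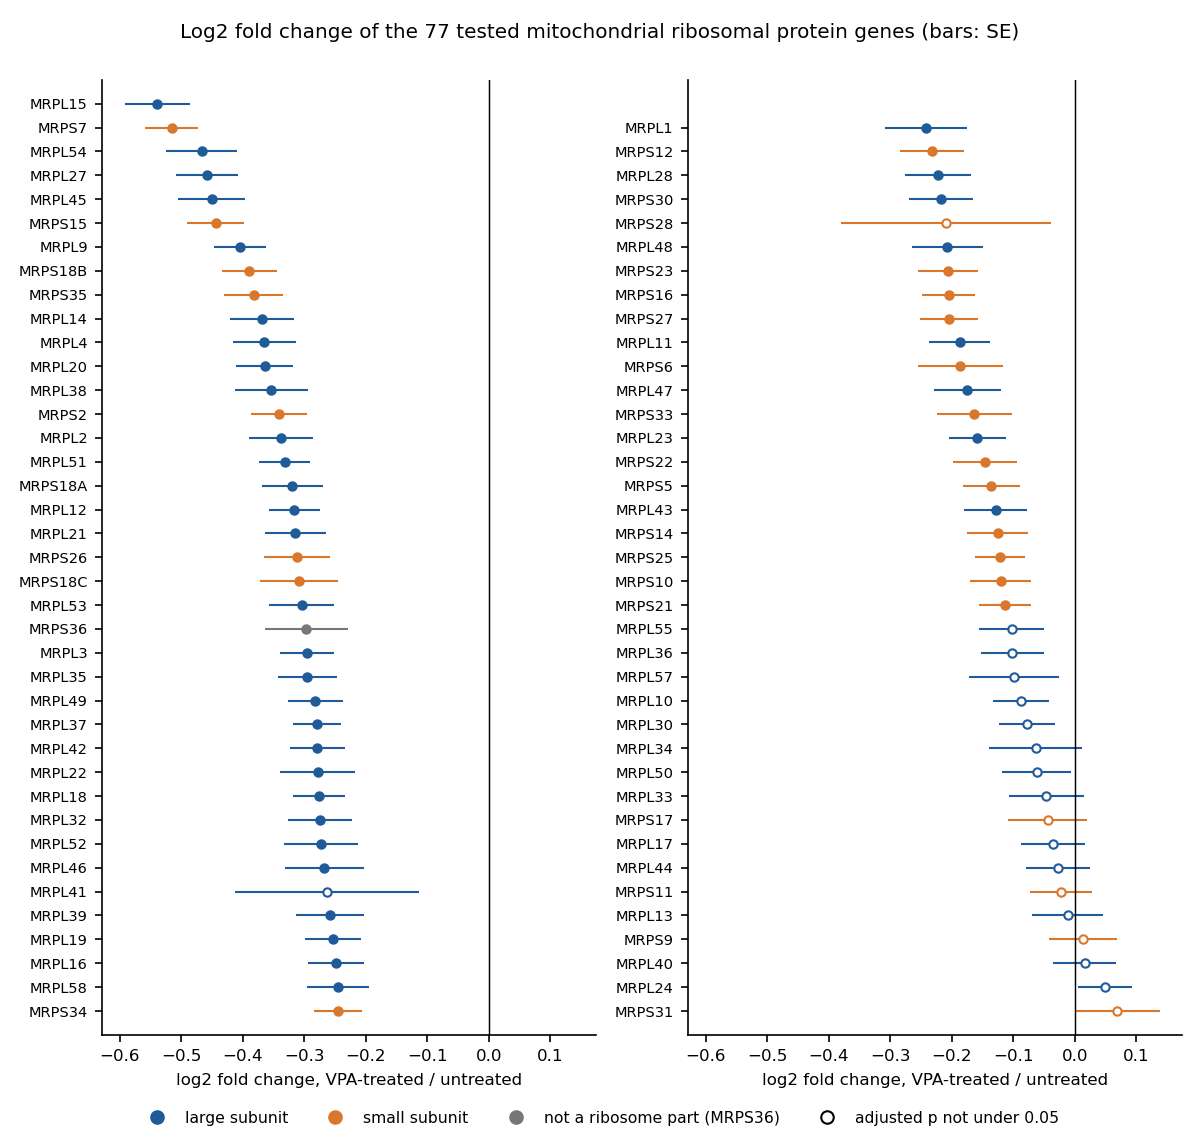
Log2 fold change of each of the 77 tested members, VPA-treated against untreated, sorted by size over 2 panels, with bars of 1 standard error, filled points for genes at an adjusted p under 0.05 and colours for the subunit. The points run from -0.54 (MRPL15) to 0.069 (MRPS31) and 58 of them are called lower at an adjusted p under 0.05 with TMM scaling, a count that is 35 with library totals and 9 (with 24 higher) when scaled on the cytosolic ribosomal protein genes, where 5.56% of all genes are lower and 60.4% higher.

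The members were also summed within each library. The 77 tested members and MRPS24 took 0.663%, 0.664% and 0.665% of the counts in the 3 untreated libraries. They took 0.618%, 0.614% and 0.613% in the 3 VPA-treated libraries. The treated libraries lay below the untreated ones by more than the spread within either condition. This share is on the scale of library totals, on which the members' median log2 fold change was -0.11 and not -0.25. In normalized counts, which are counts scaled by TMM factors to the mean library, the sums were 128703 to 131154 untreated and 109656 to 110704 after VPA.

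**Figure D2:**
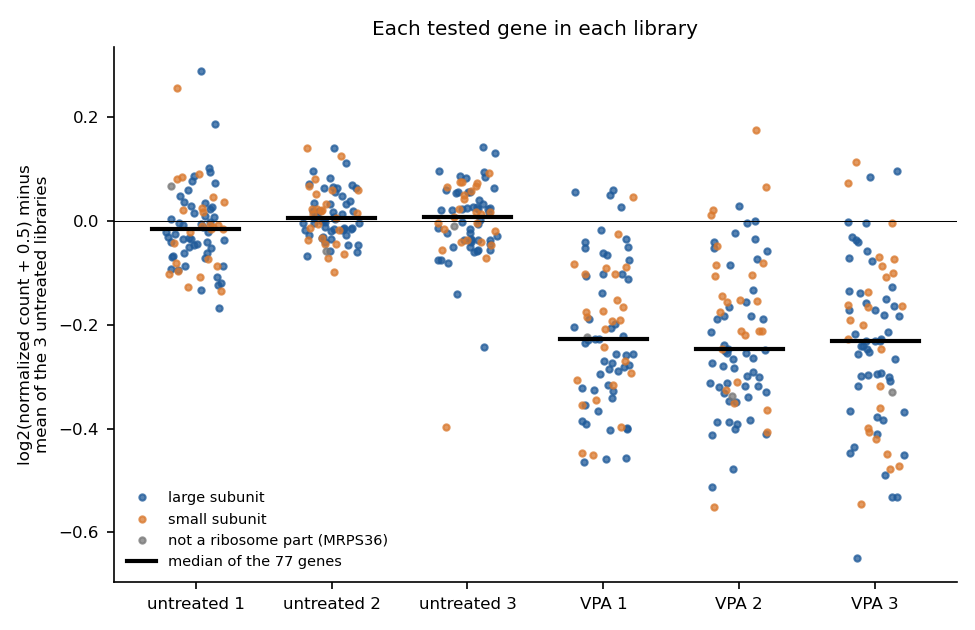
Log2 normalized count (pseudocount 0.5) of each tested member in each of the 6 libraries, less its mean over the 3 untreated libraries, with TMM scaling, 1 point per member and a bar at the median. The medians of the VPA-treated libraries lie below those of the untreated ones, as do all 3 treated values of 59 of the 77 members.

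The promoters of MRPS7, MRPL54, MRPL27 and MRPL45 are printed because these genes had the largest decreases after MRPL15. The windows are from RefSeq on GRCh38.p14, from 250 bases before to 50 bases after the annotated start, written 5′ to 3′ on the strand of the gene. MRPS7 is chr17:75261629-75261928 on the plus strand, MRPL54 chr19:3762432-3762731 plus, MRPL27 chr17:50373135-50373434 minus and MRPL45 chr17:38296918-38297217 plus. Capitals mark matches, on either strand, to the core of the ETS factors (CCGGAAG), a stretch for NRF1 (GCGCANGCG) or a stretch for YY1 (AAGATGGC).
MRPS7: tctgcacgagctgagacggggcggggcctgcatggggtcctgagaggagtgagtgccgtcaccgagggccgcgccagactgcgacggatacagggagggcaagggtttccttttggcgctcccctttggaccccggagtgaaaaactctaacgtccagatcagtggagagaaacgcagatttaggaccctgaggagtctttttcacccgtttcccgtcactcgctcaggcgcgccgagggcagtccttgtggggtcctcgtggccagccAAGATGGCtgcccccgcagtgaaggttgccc
MRPL54: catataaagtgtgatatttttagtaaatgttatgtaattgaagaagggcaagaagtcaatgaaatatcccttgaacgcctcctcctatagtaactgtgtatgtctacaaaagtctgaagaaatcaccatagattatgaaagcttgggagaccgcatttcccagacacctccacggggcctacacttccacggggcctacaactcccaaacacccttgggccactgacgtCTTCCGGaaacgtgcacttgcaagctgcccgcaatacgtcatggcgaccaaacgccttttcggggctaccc
MRPL27: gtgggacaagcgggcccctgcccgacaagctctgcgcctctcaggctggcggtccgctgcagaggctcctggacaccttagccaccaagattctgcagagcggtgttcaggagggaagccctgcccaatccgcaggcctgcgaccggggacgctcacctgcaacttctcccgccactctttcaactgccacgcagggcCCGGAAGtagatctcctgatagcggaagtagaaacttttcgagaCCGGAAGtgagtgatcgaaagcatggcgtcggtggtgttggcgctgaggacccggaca
MRPL45: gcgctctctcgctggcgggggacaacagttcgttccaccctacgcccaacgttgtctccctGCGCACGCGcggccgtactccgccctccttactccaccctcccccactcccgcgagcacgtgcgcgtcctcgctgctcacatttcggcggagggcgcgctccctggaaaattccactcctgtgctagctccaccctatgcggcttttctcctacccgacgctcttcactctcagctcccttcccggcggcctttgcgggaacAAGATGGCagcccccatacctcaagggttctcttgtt

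In these windows the MRPS7 match is of the YY1 letters, 19 bases after the start. MRPL54 holds the ETS letters, on the opposite strand, 21 bases before the start, and MRPL27 holds them at 52 and 8 bases before it. MRPL45 holds the NRF1 letters 189 bases before its start and the YY1 letters 13 bases after it. A match is a description of the letters and not a bound site. The YY1 letters contain ATG, the letters of a start codon, and whether their matches fall on start codons was not tested.

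The motifs were counted over all members, with letters that were settled after their matches were seen. RefSeq windows were matched for 70 of the 78 members and for 11740 of the tested genes. The ETS letters were in 30 member windows (42.9%), against 18.6% of all tested genes' windows, and the YY1 letters in 21 (30%), against 5.30%. The NRF1 letters were in 14 (20%, against 14.9%), or in 9 with a further C at the end (12.9%, against 11.6%), and the letters TATAAA of the TATA box in 4 (5.71%, against 5.25%). Of the 30 members with the ETS letters 26 were lower, with a median log2 fold change of -0.24, and of the 39 tested members without them 27 were lower, with a median of -0.25. With the YY1 letters 18 of 20 tested members were lower (median -0.28), and without them 35 of 49 (median -0.21). With the NRF1 letters 7 of 14 were lower (median -0.13), and without them 46 of 55 (median -0.25). With the further C these were 3 of 9 (median -0.099) and 50 of 60 (median -0.25). With the TATA letters 4 of 4 were lower (median -0.37), and without them 49 of 65 (median -0.23). All letters were sought anywhere in the window and on either strand, so a TATAAA match need not be a TATA box. In MRPL54 this match lies at the 5′ end of the printed window, far before the gene start, and is not in capitals. Over all genes tested 30% were lower. Over all tested genes the medians with and without the letters were -0.11 and 0.031 for ETS, -0.16 and 0.0061 for YY1, -0.10 and 0.015 for NRF1, and 0.082 and -0.0099 for TATA. Matches of different motifs overlapped in 0 member windows, and the differences between these groups of members were not tested.

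Transcripts for the large subunit, which forms the peptide bonds, were lower for 37 of 51 genes (72.5%), beside 30% of all genes tested. The median log2 fold change of the 51 was -0.26. MRPL15, a relative of the bacterial L15 protein, had the largest decrease of all members. It had 2099, 2305 and 2074 normalized counts untreated and 1572, 1512 and 1375 after VPA. The groups did not overlap, and each treated library was lower than each untreated one. The log2 fold change was -0.54 (SE 0.053, n = 3 per condition) with an adjusted p of 1.40e-08 in edgeR's test. The gene lies at chr8:54135241-54148514 (GRCh38, plus strand).

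MRPL54, a protein with no bacterial counterpart, had 828, 804 and 771 normalized counts untreated and 610, 575 and 553 after VPA. MRPL27, whose bacterial relative reaches the peptidyl transferase centre, had 1243, 1253 and 1212 untreated and 900, 945 and 855 after VPA. MRPL45, which faces the exit of the peptide tunnel and holds the ribosome at the inner membrane, had 1376, 1586 and 1571 untreated and 1092, 1150 and 1074 after VPA. In all 3 genes the conditions were separate, and untreated library 1 was the lowest of its condition for MRPL45 alone. The log2 fold changes were -0.47 (SE 0.058), -0.46 (SE 0.051) and -0.45 (SE 0.055), with adjusted p of 4.19e-07, 8.48e-08 and 3.31e-07 in edgeR's test. MRPL9, a protein near the base of the L1 stalk, was at 2169, 2192 and 2129 untreated and 1636, 1639 and 1628 after VPA. Its spread within a condition was small beside the difference, a log2 fold change of -0.40 (SE 0.042, adjusted p 3.04e-08).

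The members with the most counts also fell. MRPL37, a mitochondria-specific protein of the large subunit, had 7726, 8047 and 8074 normalized counts untreated and 6573, 6607 and 6465 after VPA. MRPL3, a relative of bacterial L3, had 4294, 4769 and 4635 and then 3602, 3708 and 3847. MRPL12, the stalk protein that recruits translation factors, had 4264, 4133 and 4141 and then 3501, 3366 and 3204. The conditions were separate in all 3 genes, with log2 fold changes of -0.28 (SE 0.039), -0.30 (SE 0.044) and -0.32 (SE 0.042) and adjusted p of 2.14e-06, 5.21e-06 and 9.72e-07 in edgeR's test. Per kilobase of canonical transcript, MRPL37 was the highest member at 5360 untreated and 4416 VPA-treated normalized counts, and MRPL51 followed at 4292 and 3410.

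The stalk gave unlike values for the transcripts of its 2 proteins. MRPL10, the base on which copies of MRPL12 sit, had 1541, 1507 and 1461 normalized counts untreated and 1452, 1417 and 1376 after VPA. The treated libraries were all below the untreated ones, by less than for MRPL12, at a log2 fold change of -0.087 (SE 0.046) and an adjusted p of 0.101. The difference between MRPL10 and MRPL12 was not tested. MRPL58, an enzyme of the large subunit that releases stalled peptides, had 929, 940 and 958 untreated and 789, 792 and 803 after VPA, a log2 fold change of -0.25 (SE 0.050, adjusted p 0.000220). MRPL44, a protein with an RNase III fold, had 1096, 1139 and 1219 untreated and 1091, 1174 and 1122 after VPA. Its groups overlapped, with a log2 fold change of -0.028 and a 95% interval from -0.14 to 0.080.

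MRPL1, of the mobile L1 stalk, was the lowest large-subunit member in counts. It had 438, 412 and 410 normalized counts untreated and 358, 350 and 358 after VPA. The groups were separate and the log2 fold change was -0.24 (SE 0.067, adjusted p 0.00328). MRPL24 and MRPL17, both relatives of bacterial proteins, were among the members that moved least. MRPL24 had 1791, 1732 and 1795 untreated and 1848, 1772 and 1880 after VPA, and MRPL17 had 1376, 1540 and 1589 and then 1436, 1463 and 1496. Both overlapped between the conditions, and the 95% intervals of their log2 fold changes were -0.043 to 0.14 and -0.14 to 0.072. MRPL41 gave the widest interval of the large subunit, with a log2 fold change of -0.26 (SE 0.15) that was not called, although it was without untreated replicate 3.

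Transcripts for the small subunit, which reads the mRNA, were lower for 20 of 25 tested genes (80%), beside 30% of all genes tested. The median log2 fold change of the 25 was -0.20. MRPS7, a relative of bacterial S7 in the head of the subunit, was the most changed of them. It had 2928, 3062 and 3051 normalized counts untreated and 2204, 2056 and 2064 after VPA. No treated library came near the untreated ones, and the log2 fold change was -0.52 (SE 0.043, adjusted p 1.02e-09 in edgeR's test). MRPS15, which binds the small ribosomal RNA, had 2031, 2147 and 2239 untreated and 1569, 1613 and 1536 after VPA. Its groups were separate, with a log2 fold change of -0.44 (SE 0.046, adjusted p 3.33e-08). MRPS34, a mitochondria-specific protein and the member of the small subunit with the most counts, had 3902, 3723 and 3886 and then 3245, 3234 and 3235. The 3 treated libraries were almost equal, and the log2 fold change was -0.25 (SE 0.039, adjusted p 1.27e-05).

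The small subunit also held members that did not change in the test. MRPS9, whose bacterial relative reaches toward the tRNA, had 1274, 1425 and 1408 normalized counts untreated and 1274, 1430 and 1439 after VPA. MRPS11, of the platform, had 1598, 1446 and 1602 and then 1460, 1571 and 1543. The conditions overlapped in both genes, and the 95% intervals of the log2 fold changes, -0.10 to 0.13 and -0.13 to 0.081, leave room for changes of that size. MRPS31 had the highest value of all members, a log2 fold change of 0.069 (SE 0.069), also with overlapping groups. MRPS28 was the least counted tested member, at 82.8, 76.4 and 52.5 untreated and 68.0, 65.5 and 49.8 after VPA. Its log2 fold change of -0.21 (SE 0.17) was not called, and ran from -0.39 without untreated replicate 3, where it was called, to -0.082 without VPA-treated replicate 3 and -0.084 without untreated replicate 1.

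MRPS24 was the one member that did not pass the filter, with 1, 2 and 1 counts untreated and 3, 1 and 0 after VPA, 8 in all. The readthrough gene URGCP-MRPS24 is listed at 0 in all 6 libraries and spans MRPS24 on the same strand in the annotation. TPD52-MRPS28, also listed at 0, spans MRPS28 in RefSeq, while GENCODE 44 gave no listed gene over MRPS28. The part of shared reads in these low counts was not tested. The 8 extra entries on alternate assembly loci for MRPL45, MRPS18B and MRPS36 are also at 0.

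MRPS18A, MRPS18B and MRPS18C are paralogs named after the bacterial S18 protein. MRPS18B, in the small subunit, had 2233, 2230 and 2139 normalized counts untreated and 1720, 1709 and 1612 after VPA. MRPS18C, also in the small subunit, had 611, 589 and 660 and then 488, 532 and 483. MRPS18A, which sits in the large subunit in spite of its symbol, had 1222, 1248 and 1310 and then 976, 1030 and 1023. All 3 had separate groups, with log2 fold changes of -0.39 (SE 0.044), -0.31 (SE 0.064) and -0.32 (SE 0.049) and adjusted p of 1.19e-07, 0.000239 and 8.19e-06 in edgeR's test. MRPS30 is the other MRPS symbol of the large subunit. MRPS36, named KGD4 in RefSeq and a part of the oxoglutarate dehydrogenase complex, had 480, 441 and 456 and then 393, 363 and 365, a log2 fold change of -0.30 (SE 0.067, adjusted p 0.000609).

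The members were also read by descent of the protein. Of the 45 tested members with a bacterial counterpart 32 were lower (median log2 fold change -0.22), and of the 29 mitochondria-specific ones 23 were lower (median -0.25). These are 71.1% and 79.3% lower, beside 30% of all genes tested and 46.6% of non-members of the members' mean counts. MRPS18A, MRPS18B and MRPS36 were left out of both classes, while MRPS18C was counted with a bacterial counterpart. In the small subunit these were 11 of 15 and 8 of 9, and in the large subunit 21 of 30 and 15 of 20. The differences between these classes were not tested.

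Members were well-counted genes, and well-counted genes were lower more often, so they were set beside non-members of like mean count. The tested genes were split into 10 classes of equal size by mean count, and 74 of the 77 members were in the upper 5. The 10632 non-members of the same classes, weighted to the members' distribution, had a median log2 fold change of -0.10, with 46.6% called lower and 20.9% called higher. Of these genes 24.3% lay at or below the members' median. In the top class 9 of 9 members were lower, against 73.9% of non-members, and in the class below 16 of 18, against 53.7%. The classes under these gave 18 of 26 against 43.8% and 11 of 16 against 38.1%. Non-members of like transcript length had a median of -0.050, with 32.8% lower, and of like transcript GC content -0.00019, with 31.4% lower. No test was run on these differences.

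**Figure D3:**
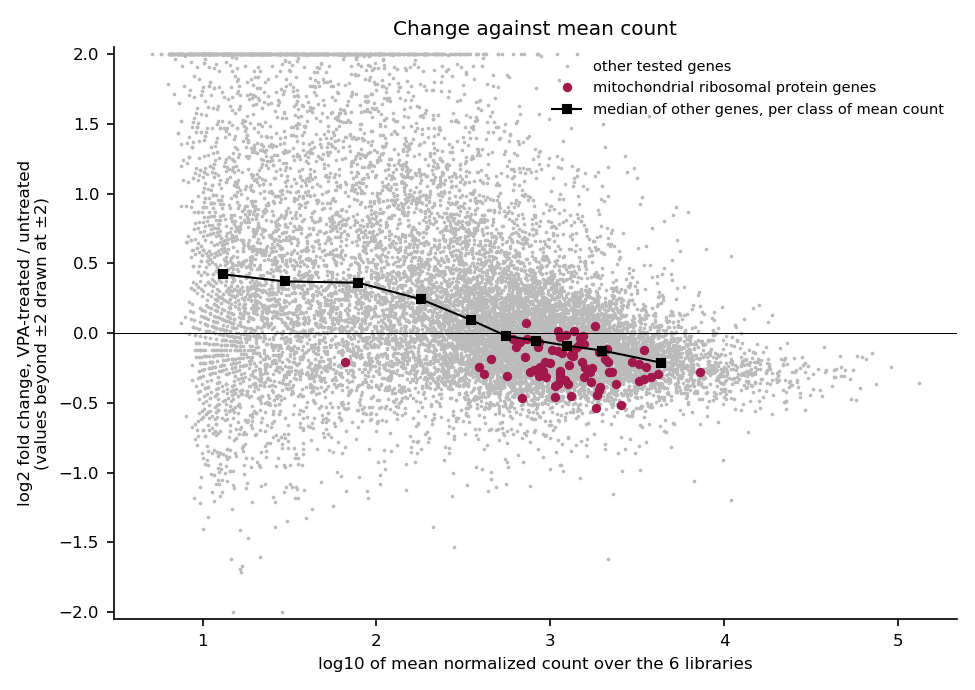
Log2 fold change (values beyond 2 in size drawn at 2) against the log10 of the mean normalized count for all tested genes in grey and the 77 members in red, with black squares at the median of non-members by class of mean count. The medians fall from 0.42 in the lowest class to -0.21 in the highest, and the members, whose median is -0.25 with TMM scaling and 0.026 when scaled on the cytosolic ribosomal protein genes, lie mostly below them.

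Outside the rule, the other genes of mitochondrial translation were read from lists by role. Over all genes tested 30% were lower and 32.9% higher. Non-members weighted to the members' mean counts had 46.6% lower and 20.9% higher, and the lists themselves were not matched by count. The 5 further subunits of the ribosome gave 3 lower (60%) and 0 higher. GADD45GIP1, at the exit of the peptide tunnel, had a log2 fold change of -0.42 (SE 0.056, adjusted p 1.38e-06 in edgeR's test). CHCHD1, of the small subunit, had one of -0.25 (SE 0.065, adjusted p 0.00202). DAP3, a GTP-binding protein of the small subunit, was at 2604, 2837 and 2774 normalized counts untreated and 2794, 2827 and 2861 after VPA. Its conditions overlapped, and its log2 fold change of 0.046 (SE 0.042) was not called.

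The assembly factors gave 17 lower and 0 higher of 26 (65.4% lower, beside 30% of all genes tested), with a median log2 fold change of -0.21. MRM3, which methylates the large ribosomal RNA, had 1132, 1130 and 1141 normalized counts untreated and 802, 822 and 839 after VPA. Its groups were far apart at a log2 fold change of -0.47 (SE 0.049, adjusted p 3.88e-08), and RCC1L, an assembly factor, was at -0.41 (SE 0.046, adjusted p 9.18e-08). The translation factors and mRNA-binding proteins gave 9 lower (56%) and 1 higher of 16, median -0.19. SLIRP, a partner of mitochondrial mRNA, was at -0.36, TACO1, an activator of COX1 translation, at -0.32, and GFM2, a ribosome recycling factor, rose by 0.13 (adjusted p 0.0402).

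The mitochondrial tRNA synthetases and amidotransferase subunits gave 11 lower and 1 higher of 20, median -0.14. That is 55% lower, beside 30% of all genes tested and 46.6% of non-members of the members' mean counts. SARS2, the seryl-tRNA synthetase, was at a log2 fold change of -0.44 (adjusted p 7.80e-07 in edgeR's test) and GATC, an amidotransferase subunit, at -0.36 (adjusted p 1.47e-06). The genes of mitochondrial DNA copying and transcription gave 7 lower (58.3%) and 1 higher of 12 tested, median -0.26. TFAM, the packaging and transcription factor, was at -0.39 and the helicase TWNK at -0.35. POLG2, the accessory subunit of the polymerase, was higher by 0.13. POLG had 9 counts in all and was not tested.

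The nuclear regulators of mitochondrial genes gave 6 lower and 1 higher of 10, median -0.21. That is 60% lower, beside 30% of all genes tested and 46.6% of non-members of the members' mean counts. PPRC1, a coactivator, had 4386, 4080 and 4099 normalized counts untreated and 2967, 2958 and 2958 after VPA. GABPA, an ETS factor, had 1135, 1048 and 1127 and then 905, 864 and 909. PPARGC1A, the coactivator PGC-1alpha, had 77.6, 64.9 and 72.4 and then 163, 171 and 161. The first pair fell, at log2 fold changes of -0.50 (SE 0.041, adjusted p 7.40e-10) and -0.31 (SE 0.052, adjusted p 2.50e-05), and PPARGC1A rose by 1.20 (SE 0.11, adjusted p 8.56e-09).

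Beside the members stand the cytosolic ribosome and the respiratory chain. The cytosolic ribosomal protein genes, whose products translate all other mRNA, were lower in 75 of 80 tested and higher in 0, with a median log2 fold change of -0.26. The nuclear genes of oxidative phosphorylation subunits were lower in 51 and higher in 2 of 78, with a median of -0.16. These are 93.75% and 65.4% lower, beside 30% of all genes tested. The families were not matched by mean count, and 73.9% of non-members in the top class of mean count were lower, with 53.7% in the class below. With the scaling set on the cytosolic ribosomal protein genes the members' median was 0.026, and no test of the difference between families was run.

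**Figure D4:**
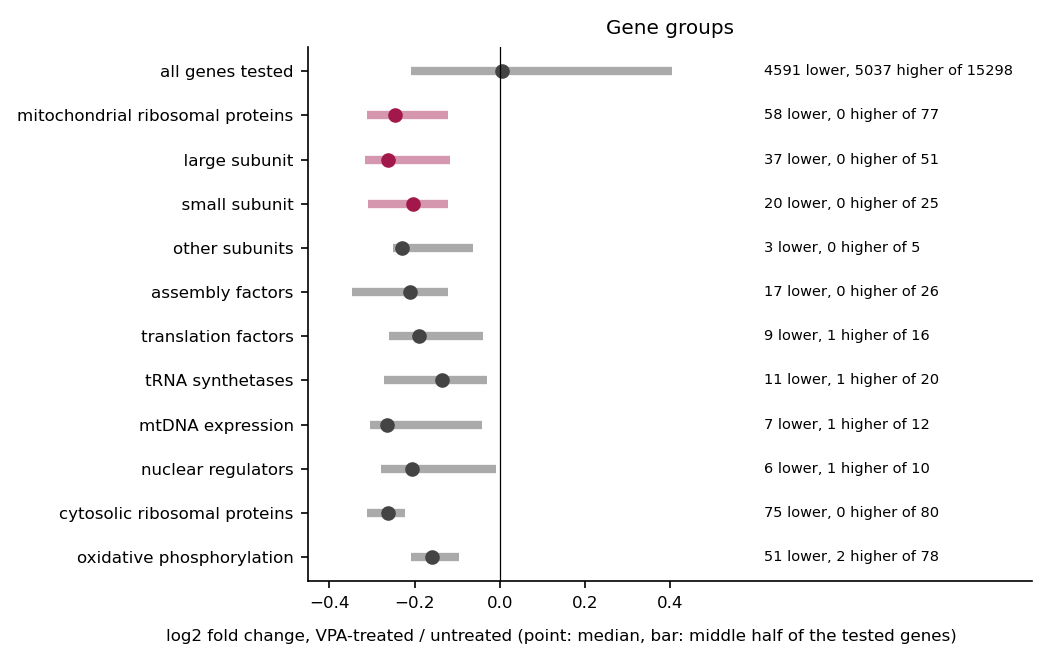
Median (point) and quartile range (bar) of the log2 fold changes with TMM scaling of all genes tested, the members by subunit and the related lists, with the number lower and higher at an adjusted p under 0.05. The members, assembly factors and cytosolic ribosomal protein genes lie at -0.25, -0.21 and -0.26, where all genes lie at 0.0058, and a scaling on the cytosolic ribosomal protein genes puts the members at 0.026.

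Some members start near the start of a gene on the other strand. In GENCODE 44, 26 members start within 1000 bases of the start of a gene that runs the other way. The distances ran from 45 bases (MRPL27 and EME1) to 990 bases (MRPL54 and APBA3), and whether such pairs share a promoter was not tested. The share of all genes with such a partner was not counted. These 26 members had 19 lower (median log2 fold change -0.28), and the 51 tested members without such a partner had 39 lower (median -0.22). Over all genes tested 30% were lower and 32.9% higher (median 0.0058). Non-members of the members' mean counts had 46.6% lower and 20.9% higher (median -0.10). Of the 24 partners that are not members, 14 were lower, 3 were higher and 7 were not called, with a median of -0.14. The higher ones were TMEM63B beside MRPL14 (0.40 against -0.37), PTCD2 beside MRPS27 (0.38 against -0.20) and CYB5RL beside MRPL37 (0.32 against -0.28), all with starts 102 to 137 bases apart. MRPL46 and MRPS11 are the one pair of members, with starts 320 bases apart. MRPL46 fell (log2 fold change -0.27, adjusted p 0.00104 in edgeR's test) and MRPS11 was at -0.022, and the difference was not tested. In all 29 of the 78 members overlap a listed gene on the other strand, among them MRPL14 (TMEM63B), MRPS27 (PTCD2), MRPL37 (CYB5RL and SSBP3), MRPS7 (GGA3 and MIF4GD), MRPL9 (OAZ3), MRPS34 (EME2), MRPS9 (MRPS9-AS1 and MRPS9-AS2), MRPS18A (RSPH9), MRPS18B (PPP1R10) and MRPS18C (ABRAXAS1). Whether the counting told the reads of such partners apart is not known, since the strand setting of the counting is not given in the sources used here.

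**Figure D5:**
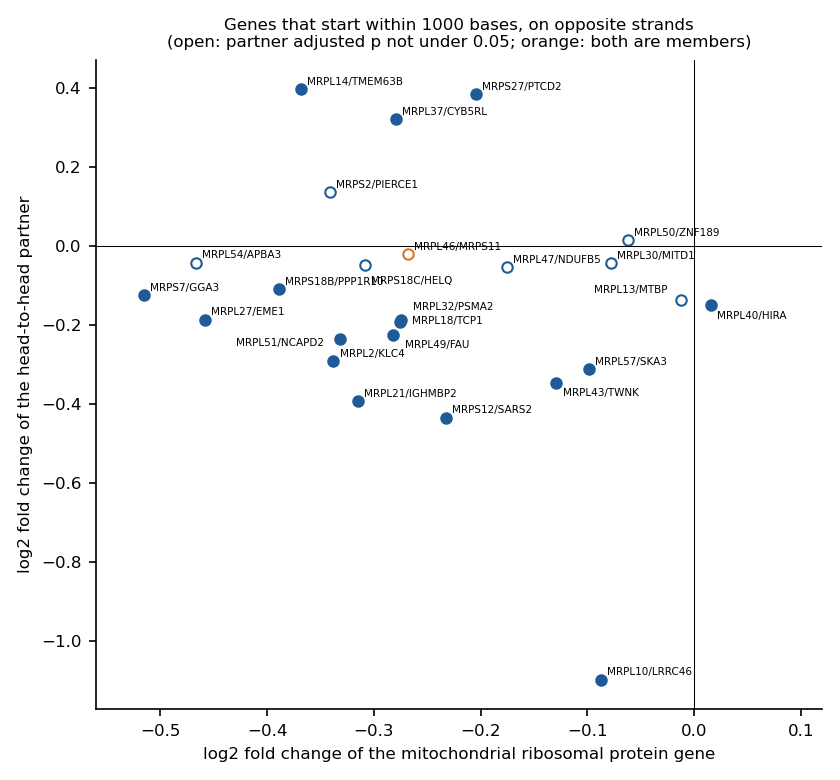
Log2 fold change of each member with a head-to-head partner against that of its partner, VPA-treated against untreated with TMM scaling; open points are partners that were not called and the orange one is the pair of 2 members. The partners above 0 that were called are TMEM63B, PTCD2 and CYB5RL.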

How the data were processed

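RNA was sequenced from 3 untreated and 3 VPA-treated HEK293T libraries. Per the labels and methods, the authors trimmed reads (SOAPnuke), aligned with STAR 2.7.10b to hg38 and obtained counts per gene from htseq-count (HTSeq 2.0.1 in the submitters' processing notes, a later release in the methods). The deposited values are raw counts. The annotation and strand setting are not given in the sources used here. The 5 summary lines that name no gene (11.8% to 12.7% of the lines' reads per library) were left out.

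All genes were tested together with edgeR 4.0.16 in R 4.3.3: filterByExpr (minimum 10), TMM, a robust quasi-likelihood model of condition alone with prior count 0.125, and adjustment by Benjamini-Hochberg over 15298 genes. DESeq2 1.42.0 was an alternative. Libraries of a condition differed beyond counting noise (chi-square per gene 1.62 to 4.80), so none were merged, and the median standard error of the members was 0.051. Like genes were taken by 10 classes of mean count. Places, lengths and GC content were from GENCODE 44 and promoters from RefSeq, both on GRCh38. Named members were the 8 largest decreases, the 4 with most and 2 with fewest counts, the 4 smallest changes, those that failed the filter and some chosen for their role. Of each list, the most significant members in each direction were named, and MRPS31, MRPL41, MRPL51, the partners and the members that overlapped were named after their values were seen. Values of some single genes of the lists are not reported here. The motif letters were settled after their matches were seen. The members and lists were chosen with earlier results of these data known.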

Additional observations from a re-analysis of the deposited data

How the results depend on the processing

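The count of 58 members lower was 47 to 59 under DESeq2, its size factors, the upper quartile, centring, other filters, thresholds and prior counts. Of all genes 18.8% (no filter) to 31.7% (DESeq2's size factors) were lower there, with 21.7% under DESeq2 and 22.3% with the upper quartile. When each library was left out it was 53 to 58 members, with 0 higher, beside 26.6% to 29.1% of all genes lower. With library totals 35 members were lower and 4 higher (MRPL24, MRPL40, MRPS31 and MRPS9), beside 15.5% and 43.9% of all genes. With the upper quartile 1 member (MRPL24) was higher. Scaling on the cytosolic ribosomal protein genes, chosen after seeing the data, gave 9 lower and 24 higher, beside 5.56% and 60.4% of all genes, and the members' median was 0.026. The median was -0.27 with DESeq2, -0.26 with its size factors, -0.18 with the upper quartile, -0.11 with library totals, -0.22 centred on non-members of like counts, -0.27 without a filter, -0.21 with a mean count filter of 50 and -0.26 to -0.24 without each library. Like genes by length (-0.050) or GC content (-0.00019), also chosen after seeing the data, moved from -0.10. With the replicate number as a block the members were 62 lower and 0 higher with a median of -0.24, beside 33.3% of all genes lower. The block added MRPL10, MRPL36, MRPL41 and MRPL55. Same-numbered libraries correlated at 0.12, 0.016 and 0.065, so the numbers were not read as pairs. Not every library correlated best with its own number.

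Of 432 values of the 24 named members under the alternatives, 390 kept direction and call, 8 lost and 7 gained the call, and 27 changed direction, the cause of which was not tested. MRPS9 was -0.011 with DESeq2, -0.00060 with its size factors, -0.0085 without a filter and -0.042 to 0.067 without each library. MRPS11 was 0.043 with the upper quartile, 0.11 with library totals, 0.0041 centred, 0.012 with a mean count filter of 50 and -0.077 to 0.0074 without each library. MRPL17 was 0.030 and 0.097 with the first pair of scalings and -0.10 to 0.00085 without each library. MRPL44 was 0.037 and 0.10 with the same scalings, 0.0063 with a mean count filter of 50 and -0.068 to 0.0082 without each library. MRPL10 was 0.044 with library totals. On the cytosolic ribosomal protein genes MRPS11 was 0.25, MRPL17 0.24, MRPL44 0.24, MRPL10 0.18, MRPS34 0.026, MRPS28 0.061, MRPL1 0.029 and MRPL58 0.025. At this depth and spread 7 members with decreases under 10% were called, and low-count members such as MRPS28 and MRPS24 could not be read closely.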
